A study of Bos taurus with 147 samples.

Results

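Of 976 genes that carry a single name on a bovine muscle and fat cDNA array, 8 were chosen because their transcripts differed between Piedmontese-sired and Wagyu-sired calves in fetal or newborn longissimus muscle. They were PHLDB2, MATR3, SELENOW, CTSC, FLVCR2, PCYOX1, LOC787045 and a gene listed as NTRK2. They were chosen by the fitted breed contrasts at d 60 of gestation and at birth, so those contrasts are described here without a test. In that fit PHLDB2 had passed the threshold at d 60, SELENOW, CTSC, FLVCR2 and LOC787045 had passed at birth, and MATR3, PCYOX1 and NTRK2 had passed at neither stage. The changes over time in the mean of both breeds and the arrays of later crossbred muscle were not used to choose them and were tested. Changes over time within one breed share their d 60 and birth levels with those contrasts, and are given as values without a test.

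All fetuses and calves had Hereford dams. One set of animals was sired by Piedmontese bulls, a breed homozygous for a missense mutation of the myostatin gene GDF8, and the other by Wagyu bulls, a breed known for marbled beef; their muscle was sampled at 4 stages, d 60, 135 and 195 of gestation and birth. The 25 two-colour arrays formed a closed loop of 8 links with 3 arrays a link (4 for Wagyu d 195 against d 135). Every link had one dye orientation: the breeds shared an array only at birth (Piedmontese labelled with Cy5) and at d 60 (Wagyu labelled with Cy5). A further 20 arrays held longissimus muscle of Piedmontese x Hereford and Wagyu x Hereford animals at times T1, T2 and T3, which the labels do not tie to an age. By the study's methods, one bull of each breed sired all d 60 fetuses, the d 60 sample was the area of the future muscle with skin hard to remove, and the hybridised RNA was amplified. The methods give 3 animals of each sire breed at each of the 4 stages, as biological replicates. Neither labels nor methods say which animal an array number stands for. Errors and p-values therefore cover the spread between arrays, and how much of it lies between animals or is technical is not known.

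These genes act in different compartments of a cell. PHLDB2 encodes a protein of the cell cortex that anchors microtubule ends and, in mouse muscle, lies beneath the neuromuscular synapse. MATR3 encodes matrin 3, an RNA-binding protein of the nuclear matrix, and variants of it cause a distal muscle disease in people. SELENOW encodes a small selenoprotein that is abundant in skeletal muscle and falls when selenium is short. CTSC (cathepsin C) and PCYOX1 (prenylcysteine oxidase) are lysosomal enzymes, the first a dipeptidyl peptidase and the second a breaker of prenylated cysteine. FLVCR2 is a membrane transporter that has been described as a carrier of haem and of choline. NTRK2 is the name of the receptor of the neurotrophin BDNF. LOC787045 is annotated as a pseudogene.

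Values are log2 ratios from the authors, likely Cy5 over Cy3, centred on the median of each array. The ratio is given here as Piedmontese over Wagyu, so that 1 is a 2-fold higher level in Piedmontese-sired muscle. Each gene was read from 2 array elements of one cDNA, and CTSC from 4 elements of 2 cDNAs. The lowest correlation between elements of a gene over the 25 fetal arrays was 0.85, for CTSC. It was not computed over the later arrays. MATR3 and CTSC each lacked a value at 1 element of 1 array. All 8 genes passed the filter on missing values in both sets of arrays.

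At birth the Piedmontese over Wagyu ratio was below 0 for MATR3, CTSC, FLVCR2, PCYOX1 and LOC787045 on all 3 direct arrays, and at d 60 it was above 0 for the same 5 genes on all 3. FLVCR2 read -1.09, -0.80 and -1.07 at birth, against 0.92, 0.52 and 0.75 at d 60. LOC787045 read -0.85, -0.94 and -0.74 at birth, against 0.23, 0.25 and 0.26 at d 60, the tightest arrays of the 8 genes at both stages. In both genes the gap between the 2 stages was larger than the spread of their arrays. These values helped to choose the genes, so nothing is read from that gap. CTSC read -0.74, -0.71 and -1.60 at birth, against 0.24, 0.52 and 0.34 at d 60. Its 2 cDNAs gave the same signs on all 6 arrays, with -1.59 and -1.61 on array 3 at birth.

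MATR3 and PCYOX1 had the same pattern with wider arrays. MATR3 read -0.68, -0.50 and -1.73 at birth, against 0.58, 1.61 and 0.38 at d 60. PCYOX1 read -0.77, -1.45 and -2.67 at birth, against 0.75, 1.96 and 0.42 at d 60. For both genes array 2 was highest at d 60 and array 3 lowest at birth. One sentence of the study names the opposite direction for MATR3 at d 60, but its listed array ratio is also higher in Piedmontese-sired fetuses. The values here are those of amplified RNA. By the study's quantitative PCR on total RNA, MATR3 did not differ significantly between the breeds at d 60 or at birth. The study traced the higher level in amplified Piedmontese d 60 RNA to a single sample. The part of amplification in the values given here was not tested. Without array 2 of every link the fitted d 60 value of MATR3 was 0.34 in place of 0.75 and that of PCYOX1 0.43 in place of 0.87. Without array 3 the birth value of MATR3 was -0.51 in place of -0.87.

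The other 3 genes were less even. PHLDB2, a cell cortex gene, read -0.22, 0.045 and -0.78 at birth, against 0.80, 0.58 and 1.07 at d 60, so that only the d 60 arrays all pointed one way. SELENOW read 0.47, 1.12 and 1.18 at birth, against -0.37, -0.40 and 0.17 at d 60. The elements named NTRK2 read 0.14, 1.59 and 1.24 at birth, against 0.31, -0.88 and -1.16 at d 60. The fitted value of these elements was 0.53 at birth without array 2, in place of 0.84, and lay between -0.77 and -0.23 at d 60 without one array number. Without array 3 the fitted birth value of PHLDB2 was -0.10 in place of -0.31. SELENOW and the elements named NTRK2 were the pair with higher levels in Piedmontese-sired newborn calves on all 3 arrays.

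**Figure D1:**
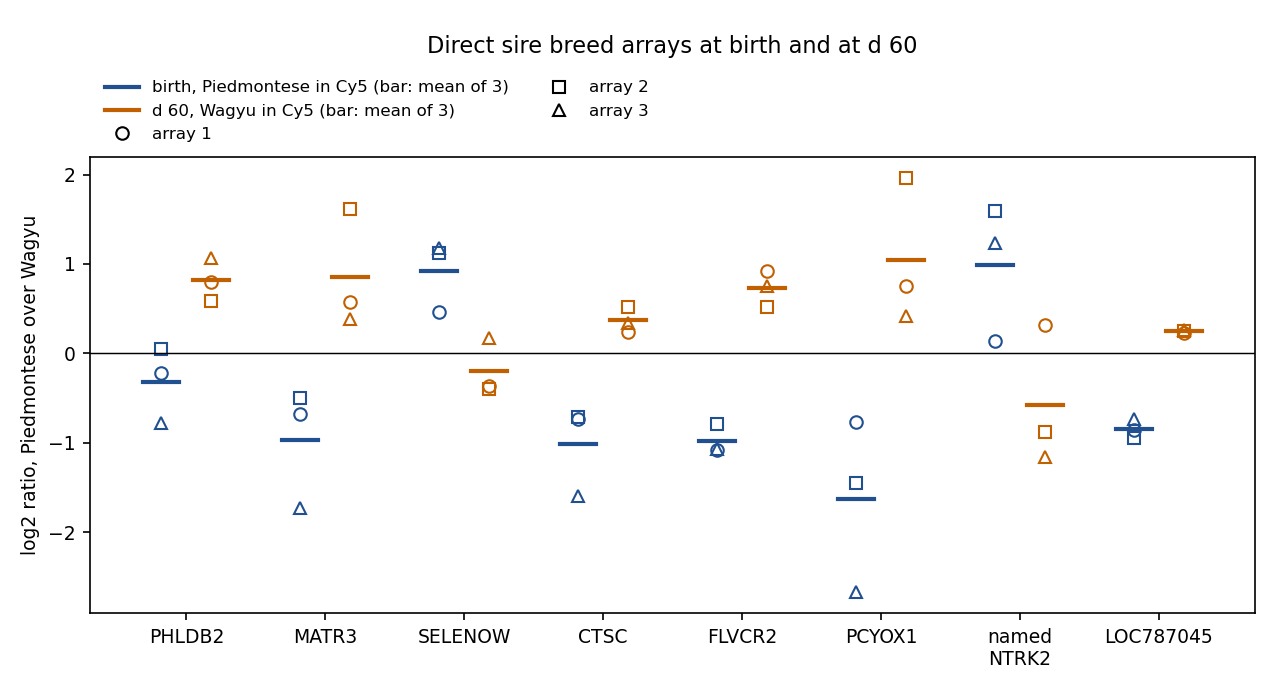
Piedmontese over Wagyu log2 ratio of each gene on the 3 direct arrays at birth (left of each pair) and the 3 at d 60 (right), with bars at the means. The birth and d 60 arrays of MATR3, CTSC, FLVCR2, PCYOX1 and LOC787045 lie on opposite sides of 0.

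In the fit of all 25 arrays the largest difference at birth was that of PCYOX1, a Piedmontese over Wagyu ratio of 0.364 (log2 -1.46 ± 0.35, SE). Ratios at birth were 0.510 for CTSC (log2 -0.97 ± 0.16), 0.512 for FLVCR2 (-0.96 ± 0.19), 0.549 for MATR3 (-0.87 ± 0.27) and 0.552 for LOC787045 (-0.86 ± 0.17). SELENOW had 2.00 times the Wagyu level at birth (log2 1.00 ± 0.20) and the elements named NTRK2 1.79 times (0.84 ± 0.29). At d 60 the largest ratios were 1.83 for PCYOX1 (0.87 ± 0.35), 1.75 for PHLDB2 (0.81 ± 0.14), 1.69 for MATR3 (0.75 ± 0.27) and 1.64 for FLVCR2 (0.71 ± 0.19). At d 135 and at d 195 the breeds were joined only by chains of arrays. SEs were larger there, at d 135 0.20 for PHLDB2 against 0.14 at birth, and 0.51 for PCYOX1 against 0.35. The 95% interval of every one of the 8 genes held 0 at both of these stages. The fitted differences lay between -0.44 (MATR3 at d 135) and 0.37 (SELENOW at d 135). The genes were chosen at d 60 and birth, so smaller values between these are not read as a change. Over all 16659 features (genes, or elements without a single name), 0.276% passed an adjusted p under 0.05 at birth, 0.048% at d 60 and 0% at d 135 and at d 195. Since these contrasts chose the genes, nothing is read from those shares. ATP5IF1, an inhibitor of ATP synthase, and COL3A1, a fibrillar collagen, were named genes with similar values at birth, 0.90 ± 0.18 and -0.94 ± 0.16.

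A change of breed order between the stages was common on this array: the mean of the direct arrays had opposite signs at the 2 stages for 8 of the 8 genes and for 73.9% of 16659 features. All 3 arrays pointed one way at d 60 and the other way at birth for 5 of the 8 genes, and for 14.2% of 15806 features with a value on all 6 arrays. Only 1.53% of these features pointed the same way on all 6. Over 16659 features the direct difference at birth correlated with that at d 60 at r = -0.53 (a description over features, which share the arrays and their dyes). Wagyu carried Cy5 at d 60 and Piedmontese at birth, and a reversal of the breed order is therefore also the same dye being the brighter one at both stages. In the 5 genes that reversed, Cy3 was the brighter dye on all 6 direct arrays. The dye term, the mean Cy5 over Cy3 ratio around the whole loop, lay between -0.17 ± 0.13 (SE, PCYOX1) and 0.15 ± 0.11 (elements named NTRK2) for the 8 genes. It passed the threshold in none of them by limma, with 0 at an unadjusted p under 0.05, against 3.64% of all features. This term is a value per link and adds up around the loop. For PCYOX1 it adds up to the gap between a change of the breed difference of -2.68 on the direct arrays and -1.28 on the others. The part of dye in a single link cannot be told apart from breed, since no link was hybridised in both orientations.

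The other 19 arrays of the loop compared stages within a breed and gave the same quantity by another route. On these time arrays, with no dye term, MATR3 changed between d 60 and birth by -2.06 ± 0.36 (SE) in Piedmontese-sired and by -1.05 ± 0.52 in Wagyu-sired muscle, so that the breed difference moved by -1.0 ± 0.63, against -1.82 ± 0.54 on the direct arrays. For FLVCR2 the breed difference moved by -1.55 ± 0.52 on the time arrays and -1.72 ± 0.15 on the direct arrays. LOC787045 gave -1.20 ± 0.51 and -1.09 ± 0.061, CTSC -1.03 ± 0.38 and -1.38 ± 0.30, and PHLDB2 -1.10 ± 0.23 and -1.13 ± 0.28, in the same order. SELENOW gave 1.74 ± 0.52 on the time arrays and 1.12 ± 0.29 on the direct arrays. PCYOX1 (-1.28 ± 0.91 and -2.68 ± 0.73) and the elements named NTRK2 (0.35 ± 0.70 and 1.56 ± 0.63) had time-array values within 1.5 SE of 0. That of MATR3, -1.0 ± 0.63, lay only just beyond 1.5 SE.

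All 8 genes had the same sign on both sets of arrays, while 53.4% of all features did, and over all features the correlation of both sets was 0.02. The difference between both sets is what the dye term of the fit takes up. The 8 genes were chosen with a fit that used both sets, so that this count is a description.

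**Figure D2:**
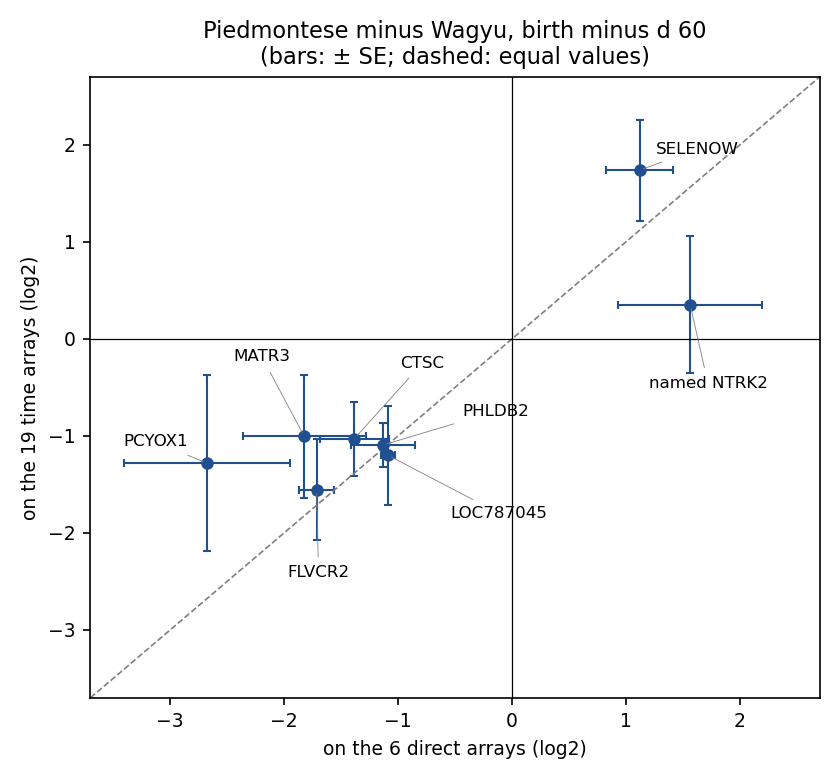
Change of the Piedmontese over Wagyu log2 ratio between d 60 and birth, on the 6 arrays that carried both breeds (x axis) and on the 19 arrays that compared stages within a breed (y axis), with SE bars. The 8 genes lie in the lower left or upper right part; PCYOX1, MATR3 and the elements named NTRK2 lie farthest from the dashed line of equal values on the side of larger direct values.

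Over time, 6 of the 8 genes changed between d 60 and birth in the mean of both breeds (limma, Benjamini-Hochberg adjusted over 16659 features): PHLDB2, FLVCR2, MATR3, CTSC and SELENOW fell and LOC787045 rose. Of all features 48.2% passed this test, 25.6% by falling. The median change was -1.21 over the 8 genes and -0.066 over all features. By step, 6 of the 8 passed between d 60 and d 135 (31% of all features), 2 between d 135 and d 195 (16.8%) and 5 between d 195 and birth (52.5%). In bulk tissue, fewer cells of a type cannot be told apart from less RNA per cell.

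PHLDB2 and FLVCR2 fell most. PHLDB2 was at 0.0758 of its d 60 level at birth (log2 -3.72 ± 0.18, adjusted p = 7.73e-12). It fell in steps, with changes of -1.67 ± 0.10 between d 60 and d 135, -0.30 ± 0.098 between d 135 and d 195 (adjusted p = 0.0372) and -1.75 ± 0.10 between d 195 and birth. The middle step did not pass without array 1, 2 or 4, with a value of -0.22 (adjusted p = 0.317) without array 2. FLVCR2 was at 0.0916 (log2 -3.45 ± 0.24, adjusted p = 7.48e-10), with changes of -1.22 ± 0.14 in the first step and -2.00 ± 0.14 in the last. The 3 Piedmontese arrays of birth over d 195 read -2.47, -1.87 and -2.87 for FLVCR2, against -1.19, -1.82 and -1.77 on the 3 Wagyu arrays, all below -1. Within a breed, the change of PHLDB2 between d 60 and birth was -4.28 ± 0.20 in Piedmontese-sired and -3.16 ± 0.20 in Wagyu-sired muscle, and that of FLVCR2 was -4.29 ± 0.28 in Piedmontese-sired and -2.61 ± 0.27 in Wagyu-sired muscle.

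The pair followed connective tissue genes over the 25 fetal arrays. The named genes most like PHLDB2 were fibronectin FN1 (r = 0.96), actin ACTG1 (0.94) and WSB1 (0.94), and those most like FLVCR2 were fibrillin FBN1 (0.97), FN1 (0.94) and PHLDB2 itself (0.94). These correlations are descriptions over arrays that share the loop's samples. All 8 measured markers of fibroblasts and matrix, out of 10 listed, fell between d 60 and birth, with changes between -4.67 (FN1) and -1.97 (DCN). At birth the Piedmontese over Wagyu ratio was below 0 for 8 of these 8 markers, between -0.94 (COL3A1) and -0.38 (COL1A1), and at d 60 it was above 0 for 6 of 8, with a median of 0.29. The fitted values of FLVCR2 and PHLDB2 thus had the sign of all 8 markers at birth and of 6 of 8 at d 60. COL1A1 (-0.20) and DCN (-0.15) went the other way at d 60. Opposite signs of the direct means at d 60 and birth were common, at 73.9% of all features, so the shared signs are a description. The part of connective tissue in the values of FLVCR2 and PHLDB2 was not tested.

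MATR3 and CTSC fell early. MATR3 was at 0.341 of its d 60 level at birth (log2 -1.55 ± 0.34, adjusted p = 8.08e-04), of which -1.14 ± 0.20 lay before d 135 and 0.008 ± 0.20 after d 195. CTSC was at 0.360 (log2 -1.47 ± 0.21, adjusted p = 5.33e-06), with -0.98 ± 0.12 before d 135. Its smaller change after d 195, -0.33 ± 0.12 in the mean over breeds (adjusted p = 0.0282), did not pass without array 2 (-0.30, adjusted p = 0.135) or array 3 (-0.26, adjusted p = 0.171). The step of CTSC between d 195 and birth was -0.76 ± 0.16 in Piedmontese-sired muscle and 0.096 ± 0.16 in Wagyu-sired muscle. The change of MATR3 between d 60 and birth was -2.36 ± 0.39 in Piedmontese-sired muscle and -0.74 ± 0.38 in Wagyu-sired muscle. The gap between the breeds in such changes is the contrast that chose the genes, restated.

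The nearest genes to MATR3 were SON, a nuclear speckle protein (r = 0.92), clathrin CLTC (0.91) and UFM1 (0.89), and those to CTSC were the transcription factor GTF2I (0.87), the histone chaperone RBBP7 (0.86) and UFM1 (0.85). MATR3 and CTSC also correlated with each other (0.81) and with PCYOX1 (0.85 and 0.79). On the 20 later arrays MATR3 still correlated with PCYOX1 (0.63), while CTSC did so with neither (-0.01 with MATR3 and -0.35 with PCYOX1).

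SELENOW fell late. The mean over breeds was at 0.517 of the d 60 level at birth (log2 -0.95 ± 0.26, adjusted p = 0.00397), and -1.02 ± 0.15 of it came after d 195 (adjusted p = 9.57e-06). The 3 Piedmontese arrays of birth over d 195 read -0.017, -0.77 and -0.70, against -1.99, -1.55 and -1.09 on the Wagyu arrays. That step was -0.57 ± 0.20 in Piedmontese-sired muscle and -1.47 ± 0.20 in Wagyu-sired muscle. Between d 60 and birth the change of SELENOW was -0.32 ± 0.29 in Piedmontese-sired muscle and -1.59 ± 0.28 in Wagyu-sired muscle. Its nearest genes were ribosomal protein RPL7A (r = 0.82), LOC508628 (0.80) and LOC515141 (0.79). Of 21 listed selenoprotein genes, 2 were measured under a name, and the other one, SELENOK, did not pass (-0.38 ± 0.35, adjusted p = 0.382).

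PCYOX1 had the widest spread of direct arrays among the 8 genes at both stages. The mean over breeds between d 60 and birth, -0.74 ± 0.45, did not pass (adjusted p = 0.181). Its first step, -0.84 ± 0.26 between d 60 and d 135, passed (adjusted p = 0.0196), but not without array 2 (-0.80, adjusted p = 0.147) or array 3 (-0.75, adjusted p = 0.0674). Within a breed, its change between d 60 and birth was -1.90 ± 0.51 in Piedmontese-sired muscle and 0.42 ± 0.50 in Wagyu-sired muscle. The 3 Wagyu arrays of birth over d 195 read 2.19, 0.42 and -0.16, and the fitted step was 0.99 ± 0.35 with all arrays and 0.38 ± 0.34 without array 1. The genes most like it were MORF4L2 (r = 0.88), PLEKHB2 (0.88) and the chaperone HSPA8 (0.86).

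In the mean of both breeds, LOC787045 was the only one of the 8 to rise between d 60 and birth. It rose by 0.60 ± 0.13 before d 135 and by 0.87 ± 0.12 between d 135 and d 195, and fell by 0.57 ± 0.13 between d 195 and birth, for a ratio of 1.86 at birth over d 60 (log2 0.90 ± 0.22, adjusted p = 0.00215). The Piedmontese arrays of birth over d 195 read -1.15, -1.27 and -0.73, against 0.11, -0.17 and -0.19 on the Wagyu arrays. The step after d 195 was -1.04 ± 0.17 in Piedmontese-sired muscle and -0.100 ± 0.17 in Wagyu-sired muscle. Between d 60 and birth the change of LOC787045 was 0.34 ± 0.25 in Piedmontese-sired muscle and 1.46 ± 0.25 in Wagyu-sired muscle. Without array 1 of every link the change between d 60 and birth was 0.67 ± 0.26 (adjusted p = 0.057), and without array 2 the first step was 0.60 ± 0.20 (adjusted p = 0.0515) and the last -0.49 ± 0.20 (adjusted p = 0.0564). The nearest genes, cadherin CDH13 (r = 0.76), B2M (0.74) and PDLIM3 (0.70), were less like it than those of the other 7 genes.

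**Figure D3:**
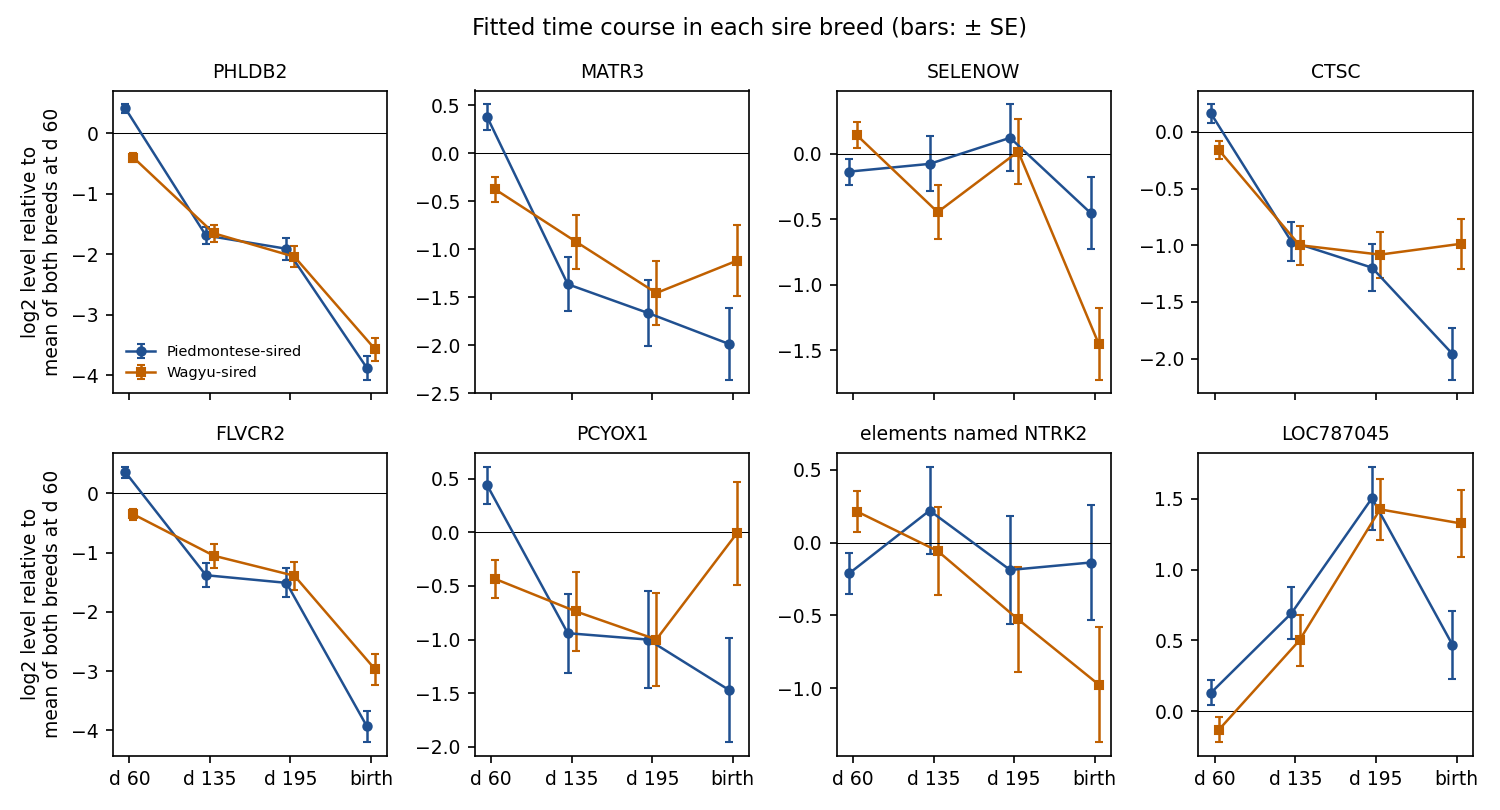
Fitted log2 level of each gene at the 4 stages (x axis) in Piedmontese-sired (circles) and Wagyu-sired (squares) muscle, relative to the mean of both breeds at d 60, with SE bars. The breeds lie closer together at d 135 and d 195 than at birth for all 8 genes. The genes were chosen by their differences at birth and d 60, so nothing is read from this. At birth the Piedmontese level is lower for 6 genes and higher for SELENOW and the elements named NTRK2.

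The elements named NTRK2 followed ribosomal protein genes. Over the fetal arrays they correlated at r = 0.73 with the mean of 46 named ribosomal protein genes, and over the 20 later arrays at 0.86, each the highest value among the 8 genes. The nearest genes were LOC783461 (r = 0.87 over 24 arrays), RPS25 (0.78) and RPL37 (0.78), and the study's own annotation lists the cDNA under a ribosomal protein name. These elements are therefore not read as the neurotrophin receptor, and none of the other 8 listed neurotrophin genes was measured. Their change between d 60 and birth was 0.075 ± 0.42 in Piedmontese-sired muscle and -1.19 ± 0.41 in Wagyu-sired muscle. The mean over breeds, -0.56 ± 0.37, did not pass (adjusted p = 0.22).

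The ribosomal protein genes shared the breed signs of these elements. At birth the fitted Piedmontese over Wagyu difference was above 0 for 43 of the 46, with a median of 0.48, and at d 60 it was below 0 for 43, with a median of -0.34. None of the 46 passed the threshold in either contrast. SELENOW, which shared the direction of these elements at birth, correlated with the ribosomal mean at 0.69 over the fetal and -0.03 over the later arrays.

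**Figure D4:**
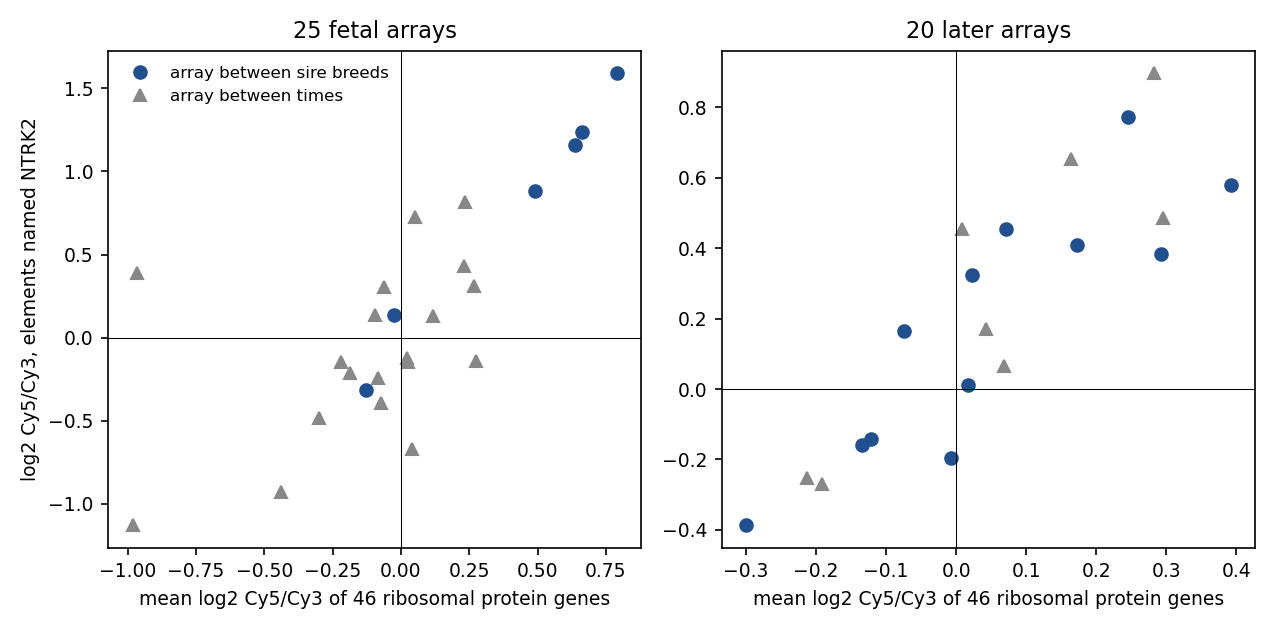
Log2 Cy5 over Cy3 ratio of the elements named NTRK2 (y axis) against the mean of 46 ribosomal protein genes (x axis), 1 point an array, for 25 fetal and 20 later arrays. Arrays between sire breeds (circles) and arrays between times (triangles) lie along one rising trend, except 1 fetal time array at a ribosomal mean of -0.97 and 0.39 for the elements named NTRK2.

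In the lists of related pathway genes some fell past the threshold between d 60 and birth and none rose past it. Of all features 25.6% fell past it. Of 17 listed lysosomal proteases and inhibitors 8 were measured, and 6 fell between d 60 and birth, among them the cathepsins CTSB (-1.50 ± 0.15) and CTSS (-0.70 ± 0.18) beside CTSC. The median of the 8 was -0.88. Only 1 of them, CTSD, was above 0 (2.07 ± 0.88), and it did not pass (adjusted p = 0.0579). Of 14 other lysosomal genes 2 were measured, and CD63 (-0.95 ± 0.24) fell while PCYOX1 did not pass. Of 24 RNA-binding proteins of the nucleus 5 were measured, and the splicing factor SRSF3 (-1.45 ± 0.17) fell beside MATR3. Among 27 cell cortex and adhesion genes 3 were measured, and the integrin ITGB1 (-1.87 ± 0.23) fell beside PHLDB2 while ITGA5 was at -0.81 ± 0.36 (adjusted p = 0.0725). ITGB1 also had a breed pattern like that of PHLDB2, -0.72 at birth and 0.93 at d 60. Of 15 haem and iron genes 4 were measured, and ferritin light chain FTL (-1.23 ± 0.22) fell beside FLVCR2, with breed values of 0.15 at birth and -0.26 at d 60 that did not follow it.

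The tissue carried the markers of muscle. All 12 measured muscle fibre markers rose between d 60 and birth, by 1.12 (TNNT3) to 4.2 (TCAP), and at birth their Piedmontese over Wagyu differences had a median of -0.13. Of 8 adipocyte markers LPL rose and SCD and PLIN1 fell; their median breed difference at birth was -0.031, and the lowest was that of SCD, -1.06. Of 4 myeloid markers CD74 and S100A8 rose and CTSS fell, with breed differences between -0.18 and 0.19 at birth. The only measured endothelial marker, EGFL7, fell by 2.48 and stood at -0.70 at birth between the breeds; the smooth muscle markers ACTA2 and CNN1 did not pass over time. Markers of nerve and blood were not measured under a name.

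In the later muscle none of the 8 genes passed the test in the direction it had at birth. The 12 breed arrays (4 at each time, arrays 1 and 3 with the Piedmontese cross in Cy5 and arrays 2 and 4 with the Wagyu cross in Cy5) held both dye orientations. Of the 8 genes 1 passed the test of the mean over T1 to T3, against 4.2% of 17253 features, and 3 had an unadjusted p under 0.05. That gene was the one named NTRK2, at 0.811 of the Wagyu level (log2 -0.30 ± 0.060, SE; adjusted p = 0.0116), opposite in sign to its value at birth and of the sign of its value at d 60. It was below 0 on 10 of 12 arrays, with a lowest value of -0.77, a median of -0.35 and a highest of 0.17; of 16735 features with a value on all of them, 9.75% were on one side of 0 on at least 10 of 12. The ribosomal protein genes moved with it: 44 of 46 were below 0, with a median of -0.16, and 4 of them passed. Markers of other tissue also differed on these arrays. Of 8 adipocyte markers FABP4 (-0.51, adjusted p = 0.00167) and ADIPOQ (-0.56, adjusted p = 0.00763) were lower in the Piedmontese cross. Of 12 muscle fibre markers 10 were above 0, with a median of 0.14, and CKM (0.49, adjusted p = 0.0211) and MYH1 (0.32, adjusted p = 0.0138) were higher. Their part in the later values of the 8 genes was not tested.

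The call for the elements named NTRK2 did not hold in several other settings. Arrays 1 and 2 of a time deviated together from the fit, as did arrays 3 and 4 (r = 0.42 to 0.74 after turning all ratios to Piedmontese over Wagyu), while other pairs of a time opposed each other (-0.87 to -0.57). Whether such a pair shared its RNA is not given in the sources used here. With each such pair averaged, a choice made after seeing the data, the difference was -0.30 ± 0.089 with an adjusted p of 0.438 and 0 of 17090 features passed. Without one of the 4 array numbers the adjusted p lay between 0.051 and 0.181. The 6 pair means were all below 0, between -0.48 and -0.12.

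None of the other 7 genes passed in the later mean, and their 95% intervals here take the arrays as independent, which the pairs above put in doubt. FLVCR2 was at -0.17 ± 0.074 with an interval of -0.32 to -0.015 (adjusted p = 0.183), the same sign as at birth. With the pairs of arrays averaged its interval was -0.40 to 0.061, which holds 0. All 8 fibroblast and matrix markers were below 0 on the same arrays, with a median of -0.28, and 4 of them passed (FN1, COL1A1, COL1A2 and SPARC); their part in the value of FLVCR2 was not tested. CTSC was at 0.26 ± 0.088 with an interval of 0.071 to 0.44 (adjusted p = 0.103), opposite to its sign at birth and above 0 on 9 of 12 arrays. Its size depended on single array numbers: it was 0.40 without array 1, 0.38 without array 2, 0.14 without array 3 and 0.13 without array 4. It was 0.048 ± 0.11 with the array number as a block, and with the pairs averaged its interval was -0.006 to 0.52. Arrays 3 and 4 had no time arrays of their number and one dye orientation each, so the block took up their mean breed difference. Values with the block therefore rest on the breed arrays numbered 1 and 2. PCYOX1 was at 0.30 ± 0.20 with an interval of -0.12 to 0.73, and at -0.087 ± 0.35 with the block. The intervals of MATR3 (-0.21 to 0.46), SELENOW (-0.16 to 0.40), LOC787045 (-0.083 to 0.22) and PHLDB2 (-0.067 to 0.19) all held 0. With the block MATR3 was at -0.41 ± 0.28, and its interval, -1.01 to 0.19, then held its birth value of -0.87. Adjusted p-values of these 5 genes, PCYOX1 included, were between 0.388 and 0.674. With the pairs averaged, all 7 intervals held 0 and the SEs lay between 0.089 (PHLDB2) and 0.29 (PCYOX1), against 0.060 and 0.20 here.

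At T1, T2 and T3 taken singly, none of the 8 genes passed by limma, with 2, 3 and 1 of them at an unadjusted p under 0.05, where 0.753%, 3.28% and 0.539% of all features passed. Single arrays showed where the spread lay. SELENOW read -0.66, -0.56, 0.56 and 0.52 on arrays 1 to 4 at T1, and 0.45, 0.39, -0.099 and -0.45 at T3, so that the pairs of arrays stood on opposite sides of 0. PCYOX1 read 0.98, 1.51, -0.48 and -0.68 at T1, and MATR3 -0.41, -0.74, 0.83 and 0.77 at T3, in the same manner. CTSC was above 0 on 4 of 4 arrays at T3 (0.15, 0.17, 0.46 and 0.34). LOC787045 was above 0 on 4 of 4 at T1 (0.85, 0.17, 0.43 and 0.019), highest where the Piedmontese cross carried Cy5. Its dye term over the later arrays was 0.20 ± 0.057 (adjusted p = 0.0205), and that of the elements named NTRK2 was 0.21 ± 0.048 (adjusted p = 0.00493), while 20% of all features had a dye term past the threshold. On 1 self-hybridisation of Piedmontese x Hereford muscle, LOC787045 read 0.42, PCYOX1 0.67, MATR3 -0.35 and the elements named NTRK2 0.21, and the other 4 genes between -0.13 and 0.031, where 0 is the value of equal dyes.

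**Figure D5:**
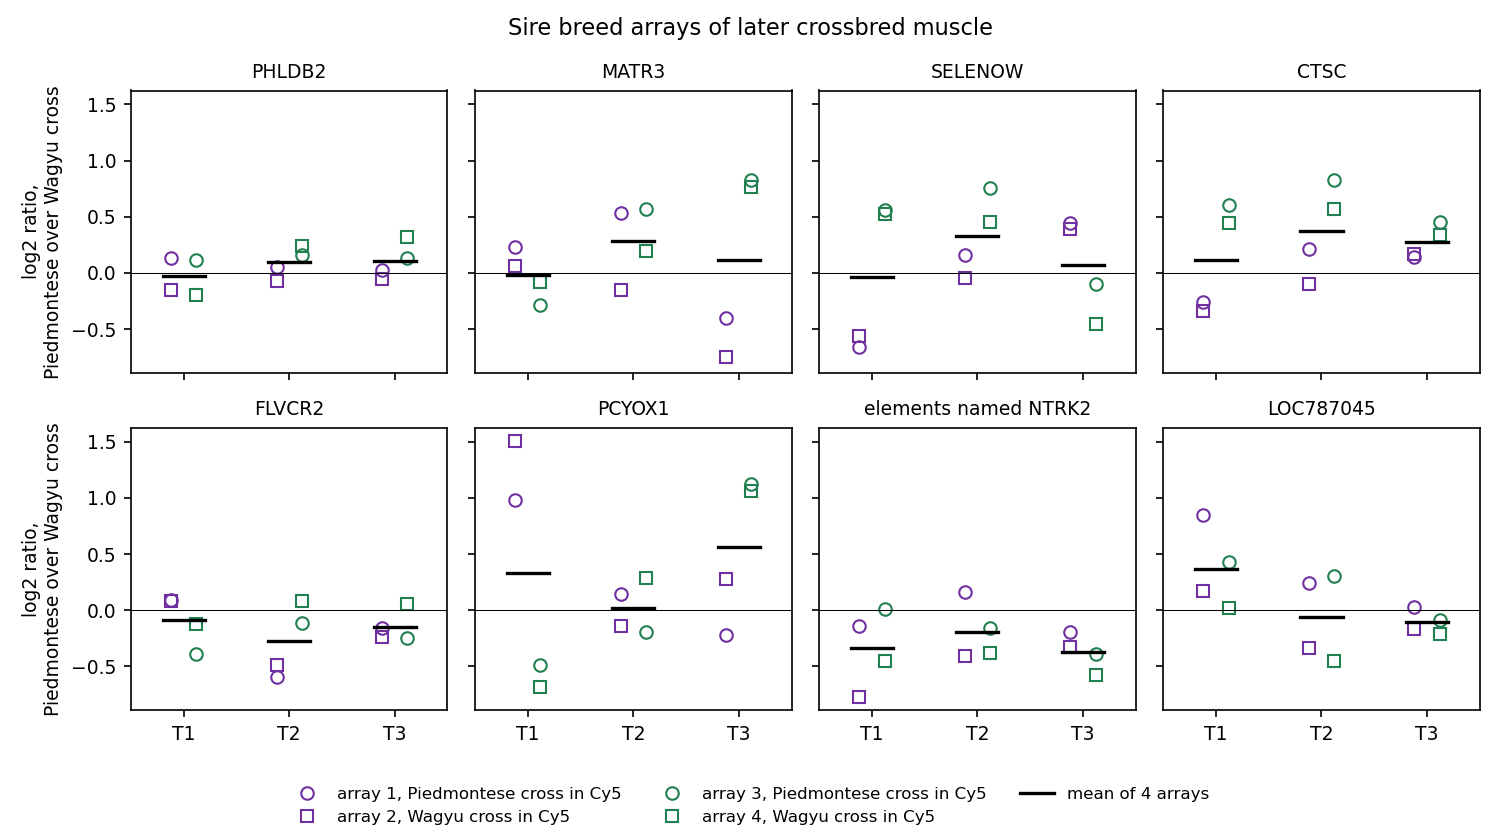
Piedmontese over Wagyu log2 ratio of each gene on the 4 breed arrays at T1, T2 and T3 of later crossbred muscle; circles had the Piedmontese cross in Cy5 and squares the Wagyu cross, colours join arrays 1 and 2 and arrays 3 and 4, and bars are means. Arrays of one colour lie closer together than arrays of one symbol for SELENOW at T1 and for MATR3 and PCYOX1 at T3.

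Over the later times 3 of the 8 genes changed between T2 and T3 in the mean of both breeds, against 10.7% of all features, and each of these calls was lost without array 2. PHLDB2 rose by 0.39 ± 0.10 (adjusted p = 0.0251; 0.34 and 0.505 without array 2), the elements named NTRK2 rose by 0.41 ± 0.10 (adjusted p = 0.0187; 0.58 and 0.174) and LOC787045 fell by 0.61 ± 0.12 (adjusted p = 0.00531; -0.47 and 0.366). Without array 1, PHLDB2 (0.44, adjusted p = 0.141) and the elements named NTRK2 (0.24, adjusted p = 0.432) did not pass either. Between T1 and T3 none of the 8 passed by limma, 2 had an unadjusted p under 0.05 (PHLDB2 and LOC787045), and 0.759% of all features passed. Between T1 and T2 none passed (6.86% of all features), 2 had an unadjusted p under 0.05, and the largest value was that of PCYOX1, 1.01 ± 0.35 (adjusted p = 0.0928). The breed difference itself did not change past the threshold between T1 and T3 or between T1 and T2 for any of the 8 genes (0.116% and 1.13% of all features), with LOC787045 at an unadjusted p under 0.05 in both and a smallest adjusted p of 0.361.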

How the data were processed

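The deposited values are log2 ratios of 2 dyes, 1 per element and array, made by the authors from cDNA arrays read with a GenePix scanner. By the study's methods, readings of each dye were edited on their own, corrected for background and put on the log2 scale; the editing criteria, and how the deposited ratios were formed, are not given in the sources used here. Intensities were not analysed here. The direction, Cy5 over Cy3, is likely: it rests on the dyes in the labels, the design drawing and the course of muscle genes. Ratios at the table's upper limit were treated as missing. Array medians, between -0.482 and 0.465, were subtracted, and elements with a single gene name were averaged per gene; other elements stayed features of their own. Fetal arrays had 19404 to 20771 usable elements of 21168 and later arrays 20794 to 20946; the number of arrays limits the precision. A single gene name was given for 4490 elements, several for 188 and none for 16490.

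Fetal (25) and later (20) arrays were fitted separately with limma 3.58.1 in R 4.3.3: a level for each group (plus for Cy5, minus for Cy3) and one dye term, features with values on at least 20 fetal or 16 later arrays, 17 and 14 residual degrees of freedom, and empirical Bayes moderation. P-values were adjusted by Benjamini-Hochberg across all features in each comparison, and 0.05 was the threshold. Arrays were taken as independent. Breed contrasts of the fetal arrays and changes within one breed are given without p-values. On simulated data with 100 features changed by 1 and 100 by 0.5 on the log2 scale, the later breed mean recovered 95 and 62 of them with 8 false calls among 17253 features, and birth minus d 60 recovered 40 and 0 with 4 false calls among 16659. The simulated noise was independent between arrays. In the data 48.2% of features passed birth minus d 60, and later breed arrays deviated in pairs, so these counts do not carry over to the tests above.

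The genes, lists and comparisons were chosen with earlier results of these data known. Genes named are the 8, for each the 3 named genes with the highest correlation over the fetal arrays (at least 20 shared values), ATP5IF1 and COL3A1, up to 3 members a pathway list by p for birth over d 60, and measured cell type markers. CTSD was added as the only measured gene of the lysosomal protease list above 0. Gene names come from the array annotation, and the pseudogene status from RefSeq (ARS-UCD2.0). A further 24 columns of the table and another table of 77 columns, of other experiments, were not used. Alternatives tried were centring, scaling, array weights, the dye term, values at the limit, the median of elements, the filter, each array number left out, the array number as a block and, added later, averaged pairs of arrays.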

Additional observations from a re-analysis of the deposited data

Results flagged for a closer look

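For 5 genes all 3 direct arrays pointed one way at d 60 and the other way at birth, and the difference between the stages was not tested. The Piedmontese over Wagyu mean at birth minus that at d 60 was -2.68 for PCYOX1, -1.82 for MATR3, -1.72 for FLVCR2, -1.38 for CTSC and -1.09 for LOC787045. The same held for 14.2% of features with a value on all 6 arrays, and the dyes of the breeds were exchanged between the stages. For 3 genes all 3 arrays at birth and all 4 arrays of a later time pointed in opposite ways, also not tested. No share of all features is at hand for this pattern. The contrast at birth helped to choose the genes, so nothing is read from this count. The later mean minus the mean at birth was 1.29 for CTSC at T3, 1.21 for LOC787045 at T1 and -1.36 for the elements named NTRK2 at T3. No array stood apart from the other 3 of its group by Dixon's criterion for any of the 8 genes, in the 3 later times or in Wagyu d 195 against d 135.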

How the results depend on the processing

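The count of 6 genes changed between d 60 and birth was 6 in each leave-one-out fit and within 1.5 times of 6 in every other setting. Without array 1 the 6 were not the same genes: LOC787045 did not pass (adjusted p = 0.057) and PCYOX1 did. The count of 1 gene differing between breeds in later muscle was 2 with array weights (CTSC joined, adjusted p = 0.0442) and 0 with no centring, with no dye term, with the array number as a block (replicate block) and with averaged pairs of arrays; it was 0 in every fit without one array number (lowest 0, highest 0). Under these the elements named NTRK2 kept their sign (-0.32 to -0.22), and adjusted p was 0.0603 with no centring, 0.0785 with no dye term, 0.427 with the block and 0.438 with averaged pairs, the range over all 14 settings being 0.00743 to 0.438. Over all features 725 differed between breeds in later muscle, against 343 with no centring, 370 with no dye term, 14 to 319 without one array number and 0 with averaged pairs. The count of genes changed between T1 and T3 was 0, and 1 with array weights. The causes were not tested. The later value of MATR3 turned to -0.046 with array weights and to -0.41 with the block, and that of PCYOX1 to -0.087 with the block. Neither gene passed in any setting. With the block, the later mean breed difference of every gene rests on the breed arrays numbered 1 and 2. The fetal breed values of all 8 genes kept their sign at both stages in 13 settings. Those of LOC787045, whose arrays were tight, moved by more than their spread: at birth -0.70 with no centring and -0.97 with scaled arrays, at d 60 0.32 with either, 0.22 with array weights and 0.22 to 0.30 without one array number. PCYOX1 passed between d 60 and birth with scaled arrays (-0.90, adjusted p = 0.0339) and without array 1 (-1.24, adjusted p = 0.0392). The array numbers were not taken as pairs, since not every same-numbered pair of fetal arrays deviated together: over 24 pairs of neighbouring links the correlation was -0.52 to 0.66, with a median of 0.18, against -0.074 over 54 pairs of other numbers. Of the 24, 15 were best with their own number, a hint from the data and not from the design. No fetal link held both dye orientations.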
